A study of Mus musculus with 2 samples.

Results

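The respiratory chain genes described here were the 84 of 28001 features of the 2 count matrices whose symbols name a structural subunit, or a Ndufaf-type assembly factor, of complexes I, III and IV or a mitochondrially encoded subunit of ATP synthase. They comprised 13 genes carried by the mitochondrial genome (symbols starting mt-Nd, mt-Co, mt-Cyt and mt-Atp) and 71 nuclear genes (symbols starting Ndufa, Ndufb, Ndufc, Ndufs, Ndufv and Uqcr, and Cox4 to Cox8). The mitochondrial set held 7 genes of complex I, mt-Cytb of complex III, 3 genes of complex IV and the ATP synthase genes mt-Atp6 and mt-Atp8. The nuclear set held 38 genes named for complex I, 7 assembly factors of complex I (Ndufaf genes), 8 of complex III and 18 of complex IV. Ndufa4 is counted under complex I by its name, although its protein is now known as a subunit of complex IV.

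The respiratory chain passes electrons from NADH to oxygen through complexes I, III and IV in the inner mitochondrial membrane and pumps protons that ATP synthase then uses to make ATP. Part of its core is encoded by mitochondrial DNA and transcribed inside the organelle as long polycistronic RNAs. Most subunits are encoded in the nucleus, made in the cytosol and imported, so that both genomes contribute to the same complexes. Several nuclear subunits of complex IV, and Ndufa4, have paralogues whose use differs between tissues and with oxygen supply, among them Cox4i2 and Ndufa4l2.

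The study followed mesenchymal progenitors of mouse skeletal muscle and their descendants, marked by tamoxifen-induced recombination in Hic1CreERT2/CreERT2;Rosa26LSLtdTomato/tdTomato mice on a C57BL/6J background. One droplet single-cell library held cells labelled in the embryo, whose mothers received 7.5 mg tamoxifen by gavage at E10, and the other held cells labelled in adults, which received 5 daily doses of 2.5 mg from 8 weeks of age. For tracing from embryo to adult, the study's text adds progesterone for the mothers, caesarean delivery and cross-fostering of the young. Both groups carried the same alleles, with CreERT2 on both copies of Hic1, both were labelled as collected at P56 (the study's text gives a later day for the adult pulse), and both were tdTomato+ cells sorted from pooled tibialis anterior muscles after cells with blood, endothelial and other lineage surface markers had been excluded. Cre was driven from the Hic1 locus itself, so only cells that had expressed Hic1 when tamoxifen was given, and their progeny, could be marked.

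With 1 library for each labelling time, cells were not treated as replicates and no test between conditions was possible. Every interval given is an exact 95% interval that covers counting error alone. Levels are counts of unique molecular identifiers (UMIs) per 1000000 non-mitochondrial UMIs (CPM), summed over all cells of a type, and the mitochondrial genes are also given as a share of all UMIs. The libraries held 8236 barcodes (E10 labelling) and 9195 barcodes (adult labelling) with 67460919 and 69153173 UMIs, of which 6926 and 8730 barcodes had at least 1500 UMIs and were used without any limit on mitochondrial content. The libraries had 15 barcodes in common.

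Smooth muscle cells were the 650 and 34 cells in which Myh11 and Sorbs2 together reached 2500 per 1000000 UMIs of the cell. The other gates gave 4331 and 6555 fibroblasts (Pdgfra, Dpt, Ly6a), 413 and 391 pericytes (Abcc9, Kcnj8, Vtn), 183 and 41 cells of a smooth muscle progenitor gate (Dlk1, Adra2a, Rgs16, Ifitm1 and Thy1 with mural genes), 235 and 467 tenocytes (Scx, Tnmd), 162 and 41 perineurial cells, and 70 and 11 Schwann cells, while 4 and 17 endothelial cells were too few to be compared. Smooth muscle identity was checked with 11 genes used in no gate, among them Acta2, Tagln and Myl9, whose summed level was 43868 CPM in smooth muscle cells and 332 in fibroblasts of the E10 library, and 25642 against 131 in the adult library. Other mural cells came nearer. Among E10 cells under 10% mitochondrial UMIs, the level was 44331 CPM in smooth muscle cells, 11255 in cells of the progenitor gate and 6812 in pericytes. In the adult library the same values were 25832, 8048 and 4740. Genes of the fibroblast identity list (Col1a1, Dcn, Lum, Gsn, Cd34) were at 4296 and 4547 CPM in smooth muscle cells, 0.099-fold and 0.082-fold their level in fibroblasts. Of the smooth muscle cells, 36 and 6 also passed another gate. At a gate of 5000, 509 and 8 smooth muscle cells remained. The study's text describes vascular smooth muscle cells with E10 labelling alone. Whether the 34 adult cells of this gate are such cells was not tested. The perineurial gate summed Fzd2, Ptch1, Wnt6 and Slc2a1. The study's text gives Fzd2, Ptch1 and Wnt6 for perineurial and endoneurial cells together, so that gate may hold both.

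Smooth muscle cells carried the largest mitochondrial share of all 7 gated types in both libraries. The 13 mitochondrial genes made up 12.79% (12.76 to 12.83) of UMIs in smooth muscle cells of the E10 library and 8.55% (8.41 to 8.69) in the 34 of the adult library. In fibroblasts the shares were 2.49% and 2.58%, and in pericytes, the mural cells of capillaries, 3.05% and 3.43%. The remaining types lay between these values: 3.98% and 6.01% in progenitor-gate cells, 4.51% and 4.18% in tenocytes, 3.77% and 5.44% in perineurial cells, and 3.58% and 6.82% in Schwann cells. The share in smooth muscle cells was thus 5.13-fold (5.12 to 5.15) that in fibroblasts in the E10 library and 3.31-fold (3.26 to 3.37) in the adult library, and 4.19-fold and 2.49-fold that in pericytes.

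The high share belonged to most smooth muscle cells rather than a few. In the E10 library, single smooth muscle cells ranged from 0.02% to 62.5% mitochondrial UMIs with a median of 13.35%, against medians of 2.37% in fibroblasts and 2.61% in pericytes. In the adult library they ranged from 2.51% to 25.4% with a median of 7.70%. A share above 10%, a level at which cells are often discarded, was found in 437 of 650 smooth muscle cells (67.2%, 63.5 to 70.8) and in 13 of 34 (38.2%, 22.2 to 56.4), but in 4.16% and 0.50% of fibroblasts and 2.42% and 2.05% of pericytes. Among the cells at or below 10% alone, the share in smooth muscle cells was 2.81-fold that in fibroblasts of the E10 library.

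**Figure D1:**
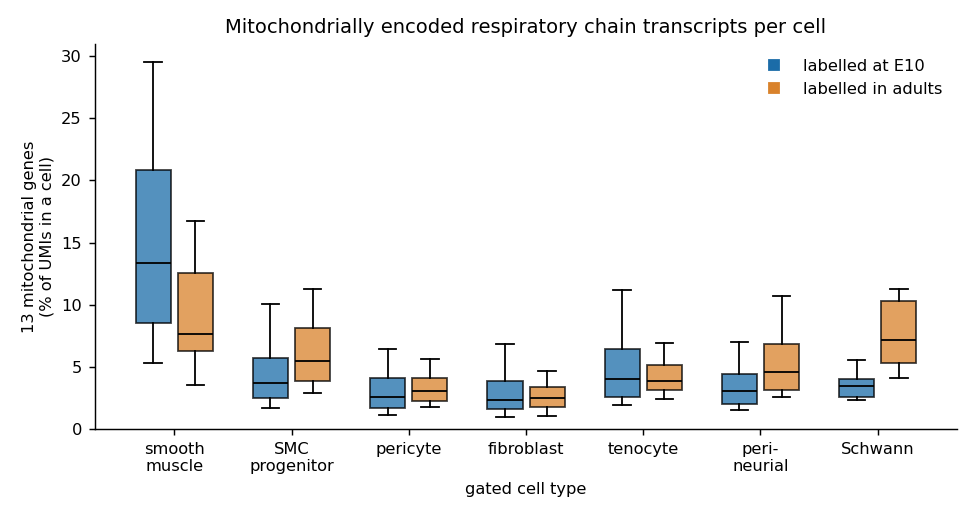
Share of UMIs from the 13 mitochondrially encoded respiratory chain genes in each cell (y axis, percent of UMIs in a cell) by gated cell type (x axis) and library (colour), where boxes give the quartiles, lines the median and whiskers the range from the 10th to the 90th percentile of cells. Smooth muscle cells stand above the other types in both libraries, with medians of 13.35% and 7.70% against 2.37% and 2.52% in fibroblasts.

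All 13 mitochondrial genes were higher in smooth muscle cells than in fibroblasts, by 3.09-fold to 8.09-fold in the E10 library and by 2.17-fold to 4.99-fold in the adult library, relative to non-mitochondrial UMIs. Over all genes compared, 25.3% in the E10 library and 31.7% in the adult library were at least 1.5-fold higher in smooth muscle cells. mt-Cytb (chrM:14145-15288, GRCm38), the mitochondrial subunit of complex III, was at 22797 CPM in smooth muscle cells and 2819.5 in fibroblasts of the E10 library, a ratio of 8.09 (8.02 to 8.16), and at 10402 and 2381 in the adult library, a ratio of 4.37 (4.15 to 4.59). mt-Nd2 and mt-Nd4, membrane subunits of complex I, followed with ratios of 7.35 and 7.04 in the E10 library and 3.66 and 4.22 in the adult library. mt-Atp6, a membrane subunit of ATP synthase, had ratios of 6.39 and 4.47.

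The other genes of the mitochondrial set differed by less in the E10 library, although none fell short of a 2-fold difference in either library. mt-Co1, which encodes the catalytic subunit of complex IV, was at 16002 CPM in smooth muscle cells and 4303 in fibroblasts of the E10 library (3.72-fold) and at 11554 and 5249.7 in the adult library (2.20-fold). mt-Co2 and mt-Co3, the remaining mitochondrial subunits of that complex, had E10 ratios of 5.91 and 5.27 and adult ratios of 3.64 and 3.61. mt-Nd1 and mt-Nd5, complex I subunits, had E10 ratios of 4.17 and 3.71 and adult ratios of 2.62 and 2.17. The composition of the mitochondrial RNA therefore differed between the types: mt-Co1 gave 10.9% of mitochondrial UMIs in smooth muscle cells and 16.8% in fibroblasts of the E10 library (12.4% and 19.8% in the adult library), and mt-Cytb gave 15.5% and 11.0% (11.1% and 8.99% in the adult library). The remaining complex I genes mt-Nd3, mt-Nd4l and mt-Nd6 had E10 ratios of 5.87, 5.32 and 5.88 and adult ratios of 3.15, 4.99 and 2.60, and mt-Atp8, the small ATP synthase subunit, 3.09 and 3.73.

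The nuclear genes of the chain were also higher in smooth muscle cells, but to a much smaller extent. Their summed level was 21175 CPM (21026 to 21325) in smooth muscle cells and 12416 (12384 to 12449) in fibroblasts of the E10 library, a ratio of 1.71 (1.69 to 1.72). In the adult library the levels were 18676 (17985 to 19386) and 11763, a ratio of 1.59 (1.53 to 1.65). Pericytes stood close to smooth muscle cells on this scale, at 19600.3 (19367 to 19835) and 19169, although their mitochondrial share was near that of fibroblasts. The ratio of smooth muscle cells to pericytes was 1.08 in the E10 library and 0.97 in the adult library.

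Each nuclear respiratory chain UMI was accompanied by 6.93 mitochondrial UMIs in smooth muscle cells of the E10 library and 5.01 in the adult library. The same quantity was 1.61 and 1.85 in pericytes and 2.06 and 2.25 in fibroblasts, the lowest values among the 7 gated types in each library, and 2.31 and 4.27 in progenitor-gate cells. Tenocytes, the cells of tendon, had 4.23 and 3.11 mitochondrial UMIs per nuclear UMI, with summed nuclear levels of 11164 and 14007 CPM that lay below fibroblasts in the E10 library (ratio 0.90) and above them in the adult library (1.19). Perineurial cells, which ensheath nerve fascicles, had nuclear levels 1.42-fold and 1.44-fold those of fibroblasts, Schwann cells, the glia of peripheral nerves, 1.43-fold and 1.26-fold, and progenitor-gate cells 1.45-fold and 1.27-fold.

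**Figure D2:**
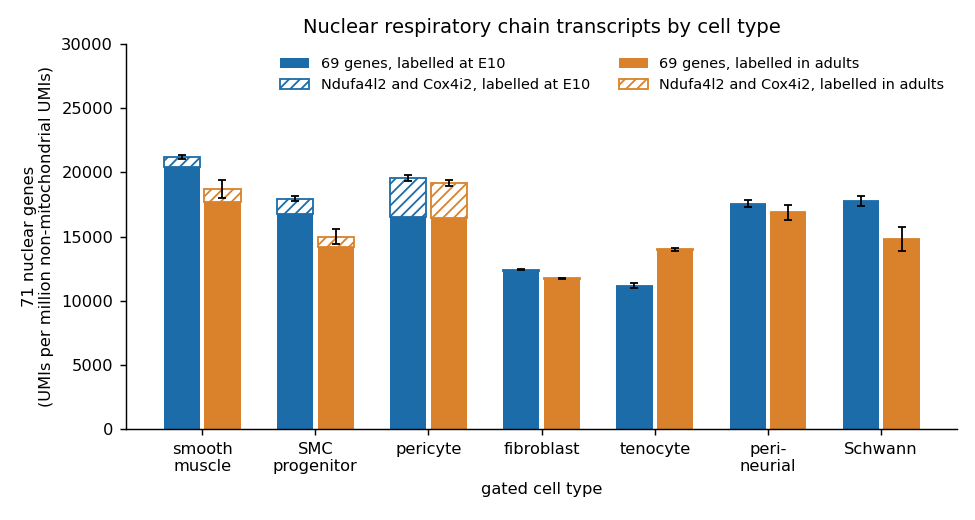
Summed level of the 71 nuclear genes (y axis, CPM) by gated cell type and library, with exact 95% Poisson intervals and with the part owed to Ndufa4l2 and Cox4i2 hatched. Smooth muscle cells and pericytes reach similar totals (21175 and 19600.3 in the E10 library), but the hatched part is 15.6% of the pericyte total and 3.51% of the smooth muscle total.

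Part of the pericyte level came from the paralogues Ndufa4l2 and Cox4i2, described below. These genes gave 15.6% and 14.3% of nuclear respiratory chain UMIs in pericytes, 3.51% and 5.12% in smooth muscle cells and 0.438% and 0.387% in fibroblasts. Over the remaining 69 genes, a comparison chosen after the data had been seen, the ratio to fibroblasts was 1.34 (1.32 to 1.36) and 1.4 (1.38 to 1.42) in pericytes and 1.65 (1.64 to 1.67) and 1.51 (1.45 to 1.57) in smooth muscle cells.

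Gene by gene, a difference was counted when a gene with at least 100 UMIs over both types differed by at least 1.5-fold. In the E10 library 67 of the 71 nuclear genes reached that minimum (Cox7b2, Cox6a2, Cox8b and Cox8c did not), and 42 were higher and 0 lower in smooth muscle cells than in fibroblasts. Over all 11618 genes compared, 25.3% were higher and 27.7% lower. The median ratio was 1.61 over the nuclear genes of the chain and 1.02 over all genes. Across the 67 genes, 62 had a ratio above 1, and the interval of the ratio lay wholly above 1 for 58 and wholly below 1 for 4. In the adult library, where smooth muscle cells were few, 38 of 67 were higher and 3 lower, against 31.7% higher and 35.7% lower over all genes, with medians of 1.55 and 1.0. Among adult cells with at most 10% mitochondrial UMIs the count of higher genes was 25. The share of all genes higher among those cells was not recorded, so whether 25 exceeds the background is not known. The 3 lower genes, Ndufaf5, Ndufaf6 and Cox8b, had 0 UMIs in the 34 cells, and the upper bounds of their ratios were 3.80, 2.83 and 6.74, so no difference could be detected at this depth. Of the 66 genes compared in both libraries, 41 were higher in the E10 library, 38 in the adult library and 31 in both. The same overlap over all genes was not computed, so that the count of 31 has no background to be read against.

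The scale mattered for this count because mitochondrial UMIs displace others. Taken per 1000000 of all UMIs, 31 of the 67 genes were higher in smooth muscle cells of the E10 library, against 20% of all genes, and the summed level was 1.53-fold that in fibroblasts. All genes then had a median ratio of 0.91 and the nuclear genes of the chain 1.44. On that scale 26 genes were higher in the adult library, against 28.7% of all genes.

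Complex I, the NADH dehydrogenase, is the entry point of the chain and its largest complex. Of its 38 nuclear genes, 24 were higher in smooth muscle cells of the E10 library and 22 in the adult library, with summed levels 1.57-fold and 1.52-fold those of fibroblasts. Over all genes, 25.3% and 31.7% were higher. Ndufs1, which carries iron-sulphur clusters of the electron-input arm, was at 105 CPM in smooth muscle cells and 40.5 in fibroblasts of the E10 library, a ratio of 2.59 (2.32 to 2.90), but at 33.9 and 35.9 in the adult library, a ratio of 0.94 (0.31 to 2.21) that rested on 5 UMIs. Ndufs7 and Ndufv1, core subunits picked out here after their values were seen, had E10 ratios of 2.41 and 2.19 and adult ratios of 1.55 and 1.52.

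Accessory subunits of complex I included the lowest ratios of the set. Ndufb4 was at 143 CPM in smooth muscle cells and 188 in fibroblasts of the E10 library, a ratio of 0.76 (0.69 to 0.83), and at 210.1 and 193 in the adult library, a ratio of 1.09 (0.74 to 1.54). Ndufs4 had a ratio of 0.76 (0.68 to 0.86) in the E10 library and 1.41 (0.90 to 2.10) in the adult library, Ndufa3 0.88 (0.81 to 0.94) and 0.91, and Ndufv3 0.91 (0.85 to 0.98) and 0.97. These 4 genes were the only ones with an interval wholly below 1 in the E10 library, and none had one in the adult library.

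Of the assembly factors, which build complex I but are no part of it, 1 of 7 was higher in the E10 library, with a median ratio of 1.23. The higher gene was Ndufaf4 at 122 against 50.6 CPM (2.42-fold, 2.18 to 2.67). That count did not exceed the 25.3% higher over all genes. Ndufaf6 had a ratio of 0.78 (0.52 to 1.13) from 30 UMIs. In the adult library 4 of 7 were higher (31.7% over all genes), from 12 UMIs in the case of Ndufaf4 (3.0-fold, 1.55 to 5.26).

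Complex III, which passes electrons from ubiquinol to cytochrome c, had 6 of 8 nuclear genes higher in the E10 library and 5 of 8 in the adult library, with summed ratios of 1.77 and 1.61. The share higher over all genes was 25.3% and 31.7%. Uqcrfs1, the Rieske iron-sulphur protein, was at 180.5 CPM in smooth muscle cells and 67.1 in fibroblasts of the E10 library (2.69-fold, 2.47 to 2.93), and at 115 and 76.8 in the adult library (1.5-fold, 0.87 to 2.40). The range over the 8 genes was 1.41 to 2.69 in the E10 library and 1.15 to 2.31 in the adult library, so that none was lower in smooth muscle cells.

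Complex IV, cytochrome c oxidase, had 11 of 14 compared nuclear genes higher in the E10 library and 7 of 14 in the adult library (25.3% and 31.7% over all genes). Its summed ratios were 1.89 and 1.67. Cox8a, the general isoform of a small membrane subunit, was the most different gene of the E10 library outside the alternative paralogues, at 1906 CPM in smooth muscle cells and 583 in fibroblasts of the E10 library (3.27-fold, 3.18 to 3.35) and at 1592 and 622 in the adult library (2.56-fold, 2.24 to 2.91). In pericytes Cox8a was at 1396 and 1304 CPM. Cox7a2l, a factor of supercomplex assembly, was near equality, at 1.07-fold (0.97 to 1.17) in the E10 library and 0.86-fold (0.57 to 1.25) in the adult library. Cox4i1, the general form of the largest nuclear subunit, was at 862 against 534 CPM in the E10 library (1.61-fold) and 644 against 526 in the adult library (1.23-fold, 0.99 to 1.5).

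**Figure D3:**
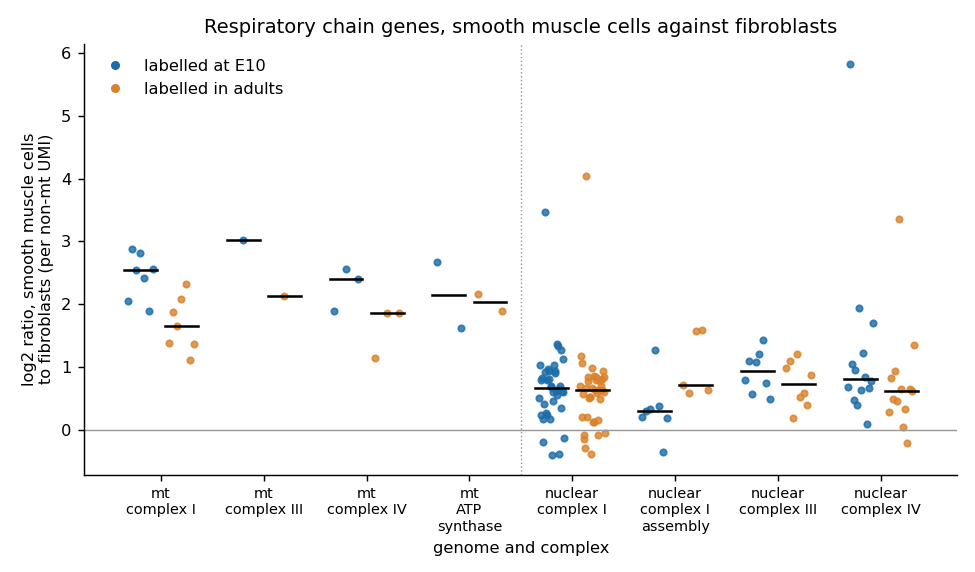
Ratio of smooth muscle cells to fibroblasts for each gene (y axis, log2 scale, per non-mitochondrial UMI), grouped by genome and complex (x axis) and coloured by library, with a bar at each median, for genes that reached 100 UMIs over both types and had at least 1 UMI in smooth muscle cells. The 13 mitochondrial genes lie between 2.17-fold and 8.09-fold, whereas the medians of the nuclear genes are 1.61 and 1.55.

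Promoters of the nuclear genes were compared because genes of the chain are known to share the factors NRF1, GABPA and YY1. RefSeq promoter windows of 300 bases around the start site (GRCm38.p6) were found for 57 of the 71 genes. The letters GCGCANGCG, a core of the NRF1 motif, were found for 13 of these genes (22.8%) and for 7.03% of all 27025 genes, both strands searched. A gene was counted when any of its windows held a match. The ETS letters bound by GABPA, CCGGAAG, were found for 17.5% of these genes against 9.93% of all genes, and the YY1 letters AAGATGGC for 12.3% against 3.19%. The windows of Ndufb4 and Cox8a are shown because these genes had the lowest ratio in the E10 library and the highest ratio outside the alternative paralogues there, and capitals mark NRF1 matches in Ndufb4 (3 matches) and ETS matches, on the opposite strand, in Cox8a (2 matches). The Ndufb4 window lies at chr16:37654319-37654618 and the Cox8a window at chr19:7217567-7217866, both on the minus strand.
Ndufb4 promoter: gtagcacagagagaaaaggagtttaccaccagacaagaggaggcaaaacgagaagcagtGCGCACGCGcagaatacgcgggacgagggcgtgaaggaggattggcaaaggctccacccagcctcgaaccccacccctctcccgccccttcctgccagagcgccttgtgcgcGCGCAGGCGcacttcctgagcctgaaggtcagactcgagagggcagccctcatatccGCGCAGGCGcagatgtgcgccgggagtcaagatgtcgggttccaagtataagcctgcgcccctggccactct
Cox8a promoter: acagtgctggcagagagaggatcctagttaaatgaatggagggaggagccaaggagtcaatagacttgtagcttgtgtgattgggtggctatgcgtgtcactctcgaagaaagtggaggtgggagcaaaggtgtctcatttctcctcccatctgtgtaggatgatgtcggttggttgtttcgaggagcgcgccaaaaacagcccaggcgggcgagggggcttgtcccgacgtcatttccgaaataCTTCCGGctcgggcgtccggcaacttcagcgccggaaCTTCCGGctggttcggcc
The windows of these genes held matches of different motifs, and a relation between motifs and ratios was not tested.

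The widest differences between cell types in the nuclear set came from paralogues. Ndufa4l2 (chr10:127514967-127517154, plus strand) is a hypoxia-responsive relative of Ndufa4 (chr6:11900292-11907497, minus strand), and the coding sequences of both are given because the exchange of one for the other was the sharpest pattern of the set. Capitals mark the bases that were identical in an alignment of the 2 sequences (168 of 245 aligned bases, 68.6%, with a longest run of 28), so that reads from their coding sequences can be told apart over most of the length.
Ndufa4: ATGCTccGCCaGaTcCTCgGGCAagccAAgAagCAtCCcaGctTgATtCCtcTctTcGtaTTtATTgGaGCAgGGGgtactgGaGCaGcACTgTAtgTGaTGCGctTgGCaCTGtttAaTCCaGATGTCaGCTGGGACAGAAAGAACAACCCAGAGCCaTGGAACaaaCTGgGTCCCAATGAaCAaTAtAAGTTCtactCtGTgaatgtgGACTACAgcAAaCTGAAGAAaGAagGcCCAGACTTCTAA
Ndufa4l2: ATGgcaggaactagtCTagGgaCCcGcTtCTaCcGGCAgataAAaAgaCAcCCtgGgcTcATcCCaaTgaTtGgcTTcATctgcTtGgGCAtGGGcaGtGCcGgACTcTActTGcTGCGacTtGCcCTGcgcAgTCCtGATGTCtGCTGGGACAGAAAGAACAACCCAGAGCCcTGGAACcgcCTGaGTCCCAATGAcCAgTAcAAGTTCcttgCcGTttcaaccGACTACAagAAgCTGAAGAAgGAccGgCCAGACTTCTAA

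In pericytes nearly all UMIs of the pair came from Ndufa4l2. Its level there was 2237 CPM in the E10 library and 2219.8 in the adult library, while Ndufa4 was at 42.7 and 40.1, so that Ndufa4l2 made up 98.1% (97.6 to 98.6) and 98.2% (97.7 to 98.7) of the pair. In fibroblasts the relation was the reverse, with Ndufa4 at 469.8 and 356 CPM and Ndufa4l2 at 51.3 and 44.6, or 9.84% and 11.1% of the pair. Progenitor-gate cells resembled pericytes in the share, 93.2% and 91.9%, at lower levels of Ndufa4l2 (779 and 726 CPM). Smooth muscle cells held both: Ndufa4l2 was at 565 and 739 CPM and Ndufa4 at 623 and 291, a share of 47.6% (46.1 to 49.1) in the E10 library and 71.7% (63.8 to 78.7) in the adult library. Which of them was the larger in the E10 library turned with the processing, the share running from 42.8% to 52.6%. Tenocytes had 7.48% and 9.70%, perineurial cells 3.81% and 0 of 56 UMIs, and Schwann cells 1.99% and 0 of 23 UMIs.

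The mixture in smooth muscle cells was seen in single cells as well. After every cell had been thinned to 1500 UMIs, Ndufa4l2 was detected in 40.8% of smooth muscle cells, 91.3% of pericytes and 4.85% of fibroblasts of the E10 library (57.5%, 95.4% and 15.8% before thinning, at median depths of 5472, 3161 and 8723 UMIs). Ndufa4 was detected in 44.9%, 6.78% and 44.6% of the same cells. Of the 650 smooth muscle cells, 120 had a UMI of both after thinning, 145 of Ndufa4l2 alone, 172 of Ndufa4 alone and 213 of neither, whereas of 413 pericytes 28 had both, 349 Ndufa4l2 alone, 0 Ndufa4 alone and 36 neither. In the adult library 7 of 34 smooth muscle cells had both, 9 Ndufa4l2 alone, 2 Ndufa4 alone and 16 neither.

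Free RNA in the droplets bears on the low members of each pair. Ndufa4 in pericytes was at 9.10% (6.92 to 11.7) of its fibroblast level in the E10 library and 11.3% in the adult library, and the fibroblast identity list was there at 5.82% and 7.23% of its fibroblast level. In progenitor-gate cells Ndufa4 was at 12.1% and 17.9%, and the fibroblast list at 13.2% and 5.53%. Ndufa4l2 in fibroblasts was at 2.29% (2.17 to 2.42) and 2.01% (1.90 to 2.12) of its pericyte level, above both the pericyte gate genes (1.43% and 1.20%) and Cox4i2 (0.38% and 0.17%). In smooth muscle cells Ndufa4l2 was at 25.3% (23.9 to 26.7) and 33.3% of its pericyte level, against 1.55% and 11.7% for the pericyte gate genes. Cox4i2 in smooth muscle cells was at 21.7% and 41.3% of its pericyte level. Pericytes were chosen for high levels of the pericyte gate genes, and cells that passed both the fibroblast and pericyte gates were set aside. The percentages of the pericyte gate genes are therefore low in part by construction and do not measure free RNA. The part of free RNA in these values was not tested.

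Cox4i2 (chr2:152754173-152765037, plus strand), the hypoxia-responsive form of Cox4i1 (chr8:120668222-120674207, plus strand), followed the same order of cell types. It was at 822 and 525 CPM in pericytes, 385 and 79.5 in progenitor-gate cells, 179 and 217 in smooth muscle cells, and 3.14 and 0.89 in fibroblasts. The ratio of smooth muscle cells to fibroblasts was 56.9 (47.5 to 68.6) in the E10 library and 245 (152 to 391) in the adult library, where it rested on 32 UMIs and fell under the 100-UMI minimum. Unlike Ndufa4l2, it stood beside its partner rather than in its place: Cox4i1 was at 739 and 632 CPM in pericytes, and the share of Cox4i2 in the pair was 52.7% (50.5 to 54.8) and 45.4% (42.8 to 47.9). In smooth muscle cells the share was 17.2% (16 to 18.4) and 25.2% (17.9 to 33.7), in progenitor-gate cells 31.8% and 10.6%, and in fibroblasts 0.58% and 0.17%. In Schwann cells Cox4i2 had 0 UMIs in both libraries, and a limit of 3 counts corresponds to 7.31 and 45.8 CPM.

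The paralogues Cox6b2 and Cox7a1 had their highest shares in perineurial cells. Cox6b2, named for its expression in testis, was at 95.2 and 88.7 CPM there and at 3.51 and 3.97 in fibroblasts, ratios of 27.1 and 22.4, and made up 16.7% (13.6 to 20.2) and 17.4% (10.3 to 26.7) of the pair with Cox6b1. Cox7a1, the heart and skeletal muscle form of Cox7a2, was at 96.3 and 127 CPM in perineurial cells and at 4.67 and 6.59 in fibroblasts, ratios of 20.6 and 19.4, and made up 15.6% (12.7 to 18.9) and 20.5% (13.5 to 29.2) of its pair. Other types also lay above the fibroblast shares, with Cox7a1 at 7.68% and 9.77% of its pair in pericytes and Cox6b2 at 6.63% and 11.9% (5.86 to 20.8) in progenitor-gate cells and 5.66% and 9.66% (7.38 to 12.4) in pericytes, and the adult intervals of Cox6b2 overlapped that of perineurial cells. In smooth muscle cells Cox7a1 was at 11.0 and 6.78 CPM, the latter from 1 UMI, and Cox6b2 at 13.4 and 40.7, with 3.82-fold (2.72 to 5.29) and 10.3-fold (3.72 to 22.7) the fibroblast level, the latter from 6 UMIs. The muscle forms Cox6a2 and Cox8b were at 0 and 1.10 CPM in smooth muscle cells of the E10 library and had 0 UMIs in those of the adult library, and Cox7b2 was at 0 in every type and both libraries.

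**Figure D4:**
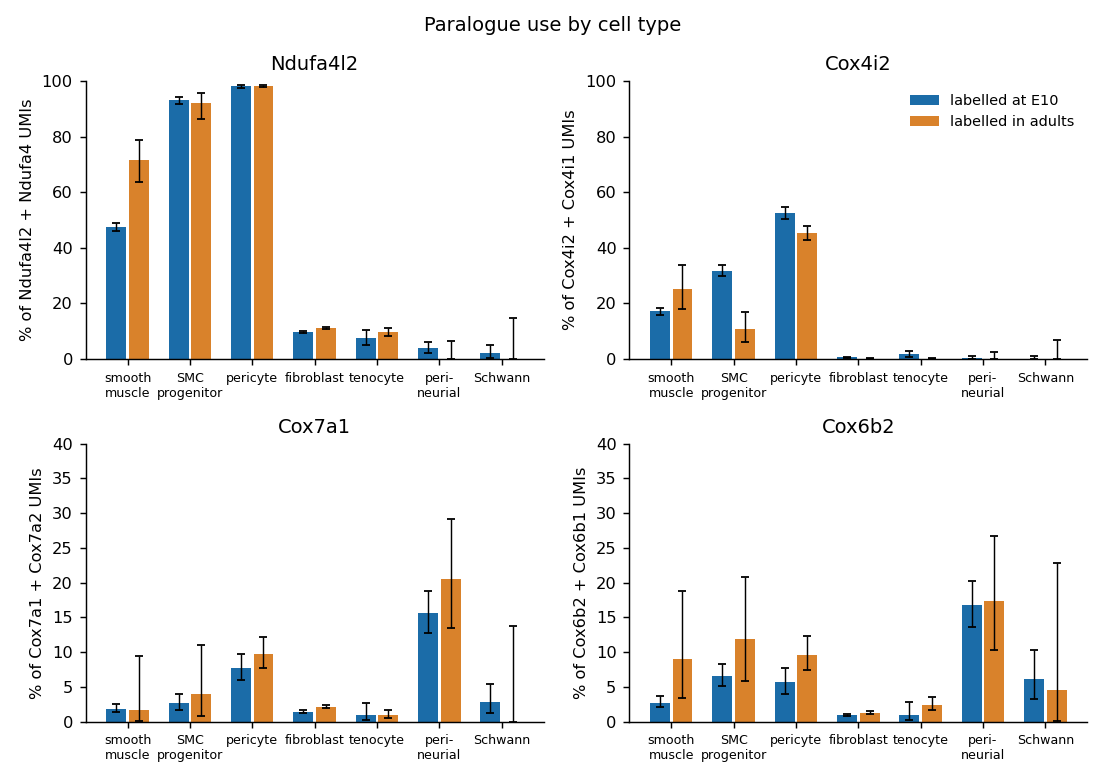
Share of UMIs from the alternative member of each pair (y axis, percent of UMIs of the pair) by gated cell type and library, with exact 95% binomial intervals. Ndufa4l2 makes up 98.1% of its pair in pericytes, 47.6% in smooth muscle cells and 9.84% in fibroblasts of the E10 library, and Cox6b2 and Cox7a1 reach 16.7% and 15.6% in perineurial cells.

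Against fibroblasts, the other types had fewer nuclear genes of the chain higher than smooth muscle cells did. In pericytes 26 of 67 genes were higher and 1 lower (Ndufa4) in the E10 library, against 36.2% higher and 23.0% lower over all genes, and 33 of 68 higher and 2 lower in the adult library, against 34.3% and 21.7%. The pericyte count of the E10 library was therefore close to the background, and its median ratio, 1.38, compares with 1.22 over all genes. Of the 42 genes higher in smooth muscle cells of the E10 library, 24 were also higher in pericytes, comparisons that share the same fibroblasts. The share of all genes higher in both types was not computed, so the count of 24 has no background to be read against. In progenitor-gate cells 19 genes were higher and 1 lower in the E10 library (20.7% and 21.5% over all genes), and 19 higher and 5 lower in the adult library (28.3% and 31.4%), with 8 and 13 of the 13 mitochondrial genes higher. In pericytes 2 of the 13 mitochondrial genes were higher in each library.

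Perineurial cells had 26 genes higher and 1 lower (30.9% and 20% over all genes) in the E10 library and 29 higher and 4 lower (30.3% and 30.4%) in the adult library, with Ndufa4l2 lower in both. Ndufs7, a core subunit of complex I, was 2.10-fold and 2.31-fold higher there. Schwann cells had 31 higher and 4 lower (31.0% and 29.2%) in the E10 library and, in the 11 cells of the adult library, 19 higher and 9 lower (31.7% and 41.4%). Ndufv1, the NADH-binding subunit of complex I, was 2.39-fold and 2.29-fold higher in Schwann cells. Tenocytes had the fewest nuclear genes higher of all types: 1 higher and 5 lower in the E10 library (22.3% and 20.1%) and 2 higher and 2 lower in the adult library (13.8% and 23.1%), while 12 and 10 of their 13 mitochondrial genes were higher. Cox4i2, the 1 higher gene in E10 tenocytes, rested on 11 UMIs, and Ndufs1 and Ndufb10, next in order there, were at 1.34-fold and 1.32-fold.

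Within smooth muscle cells, the mitochondrial share and the nuclear genes did not rise together. In the E10 library the nuclear level was 21818 CPM in the 213 cells under 10% mitochondrial UMIs and 21798 in the 260 cells between 10% and 20%, then 17811 in 119 cells between 20% and 30% and 13171 in 50 cells between 30% and 50%. The 8 cells above 50% had 14405 (11861 to 17333). The median number of genes detected fell along these bins from 2610.0 to 2213, 1376, 906.5 and 559.5, and Malat1, a nuclear-retained RNA, was at 66058, 90016, 127487, 146232 and 95819.9 CPM. Ndufa4l2 was at 646, 529, 411, 304 and 129 CPM along the same bins. Over the 650 cells, the mitochondrial share had a Spearman rho of -0.26 with the nuclear level, -0.59 with the number of genes and 0.49 with Malat1, measures that share each cell's library and depth. Whether loss of cytoplasmic RNA has a part in the highest shares was not tested.

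Fibroblasts with a high mitochondrial share were fewer and showed a lower nuclear level already from 10%. In the E10 library 4151 fibroblasts under 10% had 12479.7 CPM and a median of 2973 genes, and 163 between 10% and 20% had 6839.9 CPM and 1258 genes. Smooth muscle cells between 10% and 20% thus kept the nuclear level and most of the genes (2213) of those under 10%. In the 34 smooth muscle cells of the adult library the order differed: 21 cells under 10% had 16035 CPM, 11 cells between 10% and 20% had 26169 and 2 cells above 20% had 19868, and the dissociation response list (Fos, Jun and others) was at 3803 CPM in the first group and 14908 in the next.

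**Figure D5:**
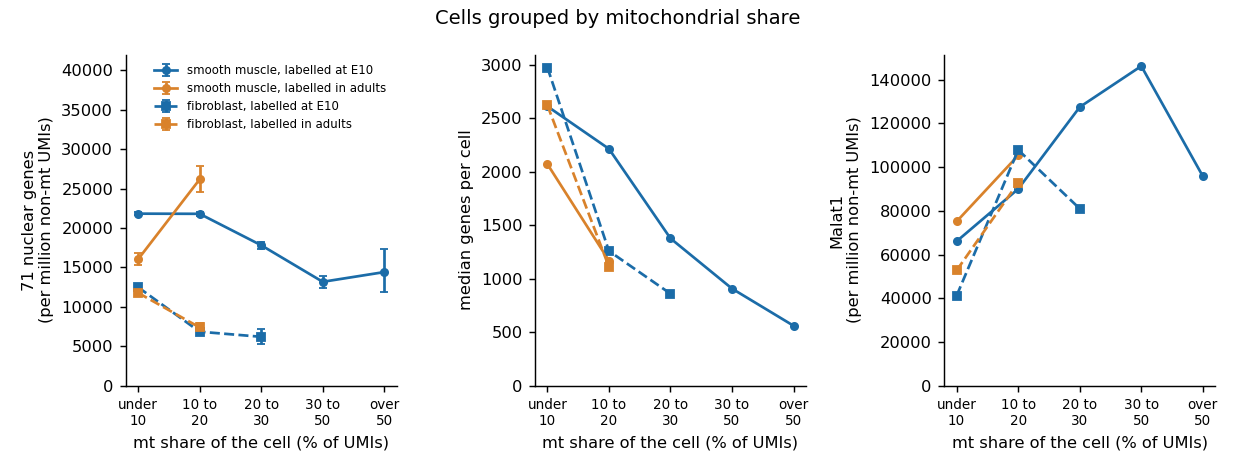
Summed level of the 71 nuclear genes, median genes detected and Malat1 level (y axes) in smooth muscle cells and fibroblasts grouped by mitochondrial share (x axis, percent of UMIs), for groups of at least 5 cells, with exact 95% intervals on the nuclear level. In the E10 library smooth muscle cells stay at 21818 and 21798 CPM up to 20%, while fibroblasts go from 12479.7 to 6839.9.

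Other measures of the cells also differed between smooth muscle cells and fibroblasts. Malat1 was at 84026 CPM in smooth muscle cells and 41927 in fibroblasts of the E10 library and at 82903 and 52835 in the adult library, and ribosomal protein genes gave 5.34% and 11.74% of non-mitochondrial UMIs in the E10 library. The dissociation response list was lower in smooth muscle cells (6358 against 7575 CPM, and 6566 against 10327). The skeletal muscle fibre list of 12 genes, a source rich in mitochondria, was at 39.7 against 17.2 CPM in the E10 library, with none of its genes at 0 in either type, and at 129 against 88.3 in the adult library, where Mb, Myh4, Tnni2, Atp2a1 and Pvalb were at 0 in smooth muscle cells. Leukocyte genes (6) had 0 UMIs in smooth muscle cells of both libraries, and erythroid genes (4) were at 11.0 CPM in the E10 library and at 0 in the adult library. The part of these differences in the respiratory chain values was not tested.

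The other genes of oxidative metabolism, from lists that held no member of the set, also had higher summed levels in smooth muscle cells. The 15 nuclear genes of ATP synthase had a summed level 1.62-fold (1.60 to 1.64) that of fibroblasts in the E10 library and 1.38-fold (1.29 to 1.47) in the adult library, with 9 and 5 of 15 genes higher and 0 lower. Against the 25.3% and 31.7% of all genes that were higher, the adult count was near the background. Atp5b, the catalytic subunit, was at 1111 against 374 CPM in the E10 library (2.97-fold) and 705 against 311 in the adult library (2.27-fold), whereas Atp5e, a small subunit of the central stalk, was at 0.85-fold and 1.0-fold. Complex II, which feeds electrons from succinate, had a summed ratio of 2.26 and 1.78, with Sdhc, a membrane anchor, at 299.6 against 71.4 CPM (4.20-fold, 3.92 to 4.50) and 210.1 against 52.5 (4.0-fold, 2.71 to 5.69). All 11 genes of the tricarboxylic acid cycle were higher in the E10 library and 8 of 11 in the adult library, with summed ratios of 2.47 (2.40 to 2.54) and 1.80 (1.53 to 2.10) that exceeded those of the nuclear respiratory chain genes (1.71 and 1.59).

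Among 13 detected genes of mitochondrial transcription and biogenesis, 7 were higher and 1, Slirp, a stabiliser of mitochondrial mRNA, was lower in the E10 library. Over all genes there, 25.3% were higher and 27.7% lower. The coactivators Ppargc1a and Ppargc1b, which drive mitochondrial biogenesis, showed the widest differences: Ppargc1a was at 23.6 against 0.54 CPM (43.8-fold, 27.8 to 71.3) and Ppargc1b at 80.8 against 2.09 (38.7-fold, 30.7 to 49.2). In the adult library Ppargc1b was at 67.8 against 2.84 CPM (23.9-fold, 11.2 to 45.1), and Ppargc1a had 0 UMIs in 34 smooth muscle cells. These cells held 147570 non-mitochondrial UMIs, too few to tell that 0 from the level of the E10 library. The coactivators were not alike in pericytes, where Ppargc1b was at 82.6 and Ppargc1a at 0.72 CPM in the E10 library. Tfam, the packaging factor of mitochondrial DNA, was at 30.4 against 21.7 CPM in the E10 library (1.4-fold, 1.14 to 1.71).

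Between the libraries, smooth muscle cells labelled at E10 had 1.5-fold (1.47 to 1.52) the mitochondrial share of those labelled in adults (12.79% against 8.55%), while the same ratio ran from 0.53 in Schwann cells to 1.08 in tenocytes among the other types. Restricted to cells with at most 10% mitochondrial UMIs, the ratio in smooth muscle cells was 1.05. Labelling time, time since labelling, progesterone, caesarean delivery, fostering, animals, library, software version and possibly chemistry changed together and cannot be told apart. The adult value rested on 34 cells. The study described no vascular smooth muscle cells with adult labelling.

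The shares of some genes in the mitochondrial RNA differed between the libraries in the same direction in each of the 6 cell types compared in both, the 11 adult Schwann cells being left out. mt-Atp8 gave 0.37% of mitochondrial UMIs in the E10 library and 2.15% in the adult library, 5.76-fold more. Its range was 0.23% to 0.52% over 7 types of the E10 library, Schwann cells included. Over the 6 types of the adult library it was 2.10% to 2.27%, without overlap. mt-Nd4l gave 1.02% and 1.96% and mt-Nd6 0.06% and 0.14%, while mt-Cytb gave 12.6% and 9.38%. The mt-Atp8 frame overlaps that of mt-Atp6 by 43 bases, and the mt-Nd4l frame that of mt-Nd4 by 7 bases, and the junctions are shown because reads there belong to both genes (chrM:7897-7969 and chrM:7927-7999, chrM:10137-10173 and chrM:10167-10203, GRCm38, overlap in capitals).
mt-Atp8 end: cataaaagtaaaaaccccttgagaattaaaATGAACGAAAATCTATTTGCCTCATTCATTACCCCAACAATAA
mt-Atp6 start: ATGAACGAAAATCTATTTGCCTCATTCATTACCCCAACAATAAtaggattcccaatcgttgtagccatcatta
mt-Nd4l end: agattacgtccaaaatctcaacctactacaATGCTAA
mt-Nd4 start: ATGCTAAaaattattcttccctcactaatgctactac
The division of UMIs between mt-Atp8 and mt-Atp6, and between mt-Nd4l and mt-Nd4, is therefore uncertain, and since the libraries were counted with different software versions, ratios between cell types were read within each library.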

How the data were processed

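Single-cell RNA-seq libraries of tdTomato+ cells from 2 labelling times, 1 library each, were analysed. The deposited values were UMI counts for each gene and barcode, made by the authors with Cell Ranger 5.0.0 (E10 labelling) and 3.0.2 (adult labelling) on a modified mm10 genome, from 10x chemistry v3 per the methods and v2 or v3 per the labels. Barcodes under 1500 UMIs (1310 and 465) were left out, with no limit on mitochondrial UMIs. Cells were gated on summed marker counts per 1000000 UMIs, at 2500 (smooth muscle and pericyte), 1000 (progenitor, with mural genes at 2500) or 1500 (others), the thresholds of all gates but smooth muscle being set from the gate sums alone. A cell in the smooth muscle gate stayed in it, and 92 and 62 cells in several other gates, like 786 and 1111 in none, were set aside. UMIs were summed over cells, with exact 95% Poisson, binomial or conditional binomial (ratio) intervals, in Python 3.11.15 with numpy 2.4.6, scipy 1.17.1 and pandas 2.3.3. The interval code was tested on simulated data. UMIs count 3′ ends, so levels do not scale with transcript length, although capture can differ between genes.

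Doublets were not removed from the values reported. Scrublet (scanpy 1.11.5) called 85 cells (1.23%) and 1 cell (0.0115%), so that it had not worked in the adult library, and the 5% of cells with the highest scores were left out as an alternative. The members and gene lists were chosen with earlier results of these data known. Named genes were all mitochondrial genes, the paralogue pairs, the 6 highest and 6 lowest ratios in E10 smooth muscle cells among genes with at least 100 UMIs, and the 3 highest ratios in each other type. Other genes named were chosen after their values were seen. Nuclear genes overlapping another on the same strand (Cox4i1, Cox7c, Ndufa10, Ndufa13, Ndufb2, Ndufb8, Ndufb9, Ndufc2) and mitochondrial genes with nuclear copies may share reads.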

Additional observations from a re-analysis of the deposited data

Results flagged for a closer look

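The barcodes left out for having under 1500 UMIs carried mitochondrial RNA at 9.18% (9.13 to 9.24) of their UMIs in the E10 library and 8.03% (7.95 to 8.11) in the adult library, above the shares of every gated type other than smooth muscle cells, from 1310 and 465 barcodes with median depths of 891.5 and 885 UMIs. Their median shares per barcode were lower, 4.02% and 4.28%, and 388 (29.6%) and 126 (27.1%) of them were above 10%.

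Ndufb10, an accessory subunit of complex I, lay in opposite directions in Schwann cells against fibroblasts. The ratio was 1.51 (1.22 to 1.84) from 96 UMIs in the 70 cells of the E10 library and 0.309 (0.084 to 0.790) from 4 UMIs in the 11 cells of the adult library, and the difference between the libraries was not tested. Of the 79 genes compared in smooth muscle cells of both libraries, 0 had intervals on opposite sides of 1.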

How the results depend on the processing

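The mitochondrial share of smooth muscle cells over fibroblasts in the E10 library, 5.13, was 4.99 at a 3000-UMI minimum, 2.81 in cells with at most 10% mitochondrial UMIs, 4.79 and 5.42 with smooth muscle gates of 1500 and 5000, 5.07 with gates on non-mitochondrial UMIs, 5.28 without cells passing another gate, 5.34 without the highest Scrublet scores, 4.74 as a mean over cells, 4.73 after thinning and 5.09 without cycling cells. In the same order, the nuclear ratio, 1.71, was 1.73, 1.75, 1.65 and 1.74, 1.69, 1.74, 1.77, 1.69, 1.74 and 1.74, and it was 1.53 per 1000000 of all UMIs and 1.65 without Ndufa4l2 and Cox4i2. The mitochondrial share of E10 over adult smooth muscle cells, 1.5, was 1.46 at a 1000-UMI minimum, 1.59 at 3000, 1.05 in cells with at most 10%, 1.45 with the 5000 gate, 1.46 with non-mitochondrial gates, 1.46 without cells of another gate, 1.53 without high Scrublet scores, 1.65 as a mean, 1.66 after thinning and 1.54 without cycling cells. The Ndufa4l2 share of its pair in smooth muscle cells, 47.6%, was 52.5% in cells with at most 10%, 51.2% and 42.8% with gates of 1500 and 5000, 51.3% as a mean and 52.6% after thinning. The count of 42 nuclear genes higher became 17 at a fold of 2 (14.5% of all genes) and lay between 31 and 45 otherwise, with 0 lower under each of 16 alternatives. The adult count of 38 lay between 9 (fold of 2) and 45. The share of all adult genes past a fold of 2 was not recorded, so the count of 9 has no background to be read against. None of the ratios given in this section changed direction, while the Ndufa4l2 share passed 50% under 4 of these alternatives. The nuclear ratio of smooth muscle cells to pericytes was not among them. In the E10 library it went from 1.08 to 0.97 when taken per 1000000 of all UMIs. The adult mitochondrial ratio ran from 2.46 to 3.65 and the adult nuclear ratio from 1.36 to 1.87. Leaving out the 15 shared barcodes, and the alternative without the mural paralogues, were chosen after seeing the data, and the former moved no value.

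With 1 library a group, no spread between animals or libraries could be measured, and no replicate could be left out. The 34 smooth muscle cells of the adult library limit every value given for them. No paired analysis was possible because each group held 1 library and the labels gave no replicate numbers.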

Other observations

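The glycolysis list held genes that differed in both directions. Of its 16 genes, 9 were higher and 2 lower in smooth muscle cells than in fibroblasts of the E10 library, and 9 and 2 in the adult library, with summed ratios of 1.42 and 1.43, against 25.3% higher and 27.7% lower over all genes in the E10 library and 31.7% and 35.7% in the adult library. The lactate dehydrogenase subunits differed: Ldhb was at 134 against 16 CPM in the E10 library (8.37-fold, 7.45 to 9.39) and 6.87-fold in the adult library, whereas Ldha was at 179 against 315 (0.57-fold, 0.52 to 0.61) in the E10 library and 1.13-fold (0.72 to 1.68) in the adult library. Hk2, a hexokinase, was at 26.6 against 86.8 CPM in the E10 library (0.31-fold) and 0.14-fold, from 2 UMIs, in the adult library.

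Of the 6 genes of the hypoxia response list with enough UMIs, 4 were higher and 2 lower in smooth muscle cells of the E10 library, and 2 higher and 3 lower in the adult library. Over all genes, 25.3% were higher and 27.7% lower in the E10 library, and 31.7% and 35.7% in the adult library. The adult count of higher genes was near that background. Epas1, which encodes the oxygen-sensitive factor HIF2A, was at 558 CPM in smooth muscle cells, 422 in pericytes and 12.8 in fibroblasts of the E10 library, and at 684, 468 and 12 in the adult library. Vegfa and Bnip3, targets of the hypoxia response, were at 0.38-fold and 0.39-fold the fibroblast level in smooth muscle cells of the E10 library, and at 0.45-fold and 1.33-fold (0.43 to 3.11) in the adult library.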
